A study of Mus musculus with 18 samples.

Results

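The 9 genes followed here encode secreted or membrane-bound factors of blood and lymph vessel growth, measured in 18 lung metastases: the vascular endothelial growth factors Vegfa, Vegfb, Vegfc and Pgf, the angiopoietins Angpt1 and Angpt2, the peptide hormones Apln and Adm, and the Notch ligand Dll4. They were chosen by name from the 49585 gene identifiers of the count table, and all 9 had counts. The lesions were grown from AT3, a mouse mammary carcinoma line, labelled with GFP and mCherry and placed in the mammary fat pad, from where the cells spread to the lungs. All hosts carried the same deficiency, labelled Rag2-/-IL2rg-/- (the growth protocol names Rag1-/-IL2rg-/-), so host T, B and NK cells were lacking in both groups. The NK group was 2 mice, NK1 (3 lesions) and NK2 (4 lesions), that had received 60000 mouse NK cells, activated in culture, by vein on day 11. The control group was 3 mice given PBS, named KO1 (5 lesions), KO2 (4 lesions) and KO3 (2 lesions). The labels do not state the ages of the mice. Lesions were found by fluorescence in frozen lung sections and cut out by laser, so a library holds the RNA of every cell type in the captured area, and each was made from 2 ng of total RNA. A lesion is written as its mouse and number, so that NK1-3 is lesion 3 of mouse NK1.

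VEGF-A, the main growth signal for blood vessel endothelium, acts through the receptor VEGFR2 (Kdr), while VEGF-B and placental growth factor (Pgf) bind VEGFR1 (Flt1) and VEGF-C acts mainly on lymphatic endothelium through VEGFR3 (Flt4). Angiopoietin 1, made largely by mural and stromal cells, activates the receptor Tie2 (Tek) and stabilises vessels, and angiopoietin 2, released by endothelium, is its context-dependent antagonist. Dll4 and apelin are markers of the tip cells that lead a vessel sprout, Dll4 restrains sprouting through Notch, and Vegfa, Adm and Apln are textbook targets of the hypoxia-inducible factors. Pecam1, which encodes the endothelial surface protein CD31 (chromosome 11, 106654217 to 106750628, GRCm38), served as the measure of endothelial content.

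The bases before the start of transcription were read for the core letters that hypoxia-inducible factors bind, because the relation of these genes to the hypoxia response is described further down. RefSeq promoters on GRCm38.p6 were found for 7 of the 9 genes, with 9 annotated starts in all, and the 250 bases before each start were searched on both strands for ACGTG or GCGTG. A match stood before 5 of the 9 starts, 1 each of Vegfa, Vegfb, Pgf, Adm and Dll4, and in 38.6% of the 32851 promoters of the table. The main Vegfa start, at the gene's end, held none in this window, and a second Vegfa start inside the gene held 2. The windows shown are 30 bases long, each 5′ to 3′ on the strand of its gene, with the matched letters in capitals. They lie at chr17:46025365-46025394 (Vegfa, minus strand), chr19:6987716-6987745 (Vegfb, minus strand), chr7:110627554-110627583 and chr7:110627590-110627619 (Adm, plus strand) and chr2:119325576-119325605 (Dll4, plus strand). Their matches begin 218 and 211 (Vegfa, both in its window), 81 (Vegfb), 90 and 54 (Adm) and 195 (Dll4) bases before the start. Another Vegfb match, 237 bases before the start, and the Pgf match, 124 bases before its start, are not shown.
Vegfa, inner start: gaagccctggagtGCGTGccCACGTcagag
Vegfb: cccggtggggagcGCGTGtttaggtcacat
Adm, far match: ttttagaagcaagCACGCtggagagggagg
Adm, near match: gggcaaatctgacCACGCccaccgtccgcc
Dll4: actgctcgccgggCACGCgcagagctggaa
A match describes the letters and is not a bound site. The core of the Notch factor RBPJ (TGGGAA, in 21.6% of promoters) stood before 3 of the 9 starts, both of Vegfa and that of Adm, and an ETS core (GGAAGT, in 19.7%) before 1, that of Adm.

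Libraries of the NK group held 2964241 to 11798853 counts and those of the controls 5690448 to 9816212. The mitochondrial transcript mt-Rnr2 took 12.1% to 68.7% of a library, and over 40% in 6 lesions, namely all 3 of NK1, KO1-2, KO1-5 and KO3-2. Mouse NK1 stood apart in the cell types captured with its lesions. The summed CPM (counts scaled to a common library size with TMM) of 19 endothelial markers was 66.1 in NK1 and 328 to 470 in the other 4 mice, and that of 8 fibroblast markers was 5787 in NK1 and 288 to 1149 in the others. By lesion the endothelial sum ran from 52.7 to 429 CPM with NK cells and from 234 to 611 in controls, and each endothelial marker had counts. Alveolar epithelial markers were present in all lesions (243.5 to 3664 CPM summed), as were carcinoma epithelial markers (65.2 to 818 CPM summed). Pecam1 followed the mean of the endothelial markers over the 18 lesions (Pearson r = 0.93, and 0.73 within mice, with Pecam1 itself in the list), as a description over libraries that share depth and capture. In bulk RNA of this kind, fewer cells of a type and less RNA per cell cannot be told apart.

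Per kilobase of the longest coding transcript, Vegfb had the highest mean level of the 9 factors, 30.5 ± 8.22 CPM per kb (SD, n = 5 mice). Vegfc (10.1 ± 2.89) and Vegfa (9.87 ± 2.44) came next and did not differ beyond their spread, since Vegfc was the higher in 3 of 5 mice. Apln followed with 4.56 ± 3.41 and Pgf with 2.58 ± 2.24 CPM per kb, an order that held in 3 of 5 mice. Dll4 had 1.24 ± 0.976 and stood below Pgf in 4 of 5 mice. The lowest were Adm (0.718 ± 0.503), Angpt2 (0.649 ± 0.320) and Angpt1 (0.402 ± 0.329 CPM per kb), of which Adm stood above Angpt2 in 2 of 5 mice. Vegfb was above Vegfc, and Vegfa above Pecam1 (5.65 ± 2.84), in 5 of 5 mice. Over all lesions the counts behind these levels were 6764 for Vegfb, 5292 for Vegfa, 4370 for Vegfc, 2956 for Apln, 883 for Dll4, 821 for Pgf, 414 for Angpt2, 230 for Angpt1 and 142 for Adm.

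**Figure D1:**
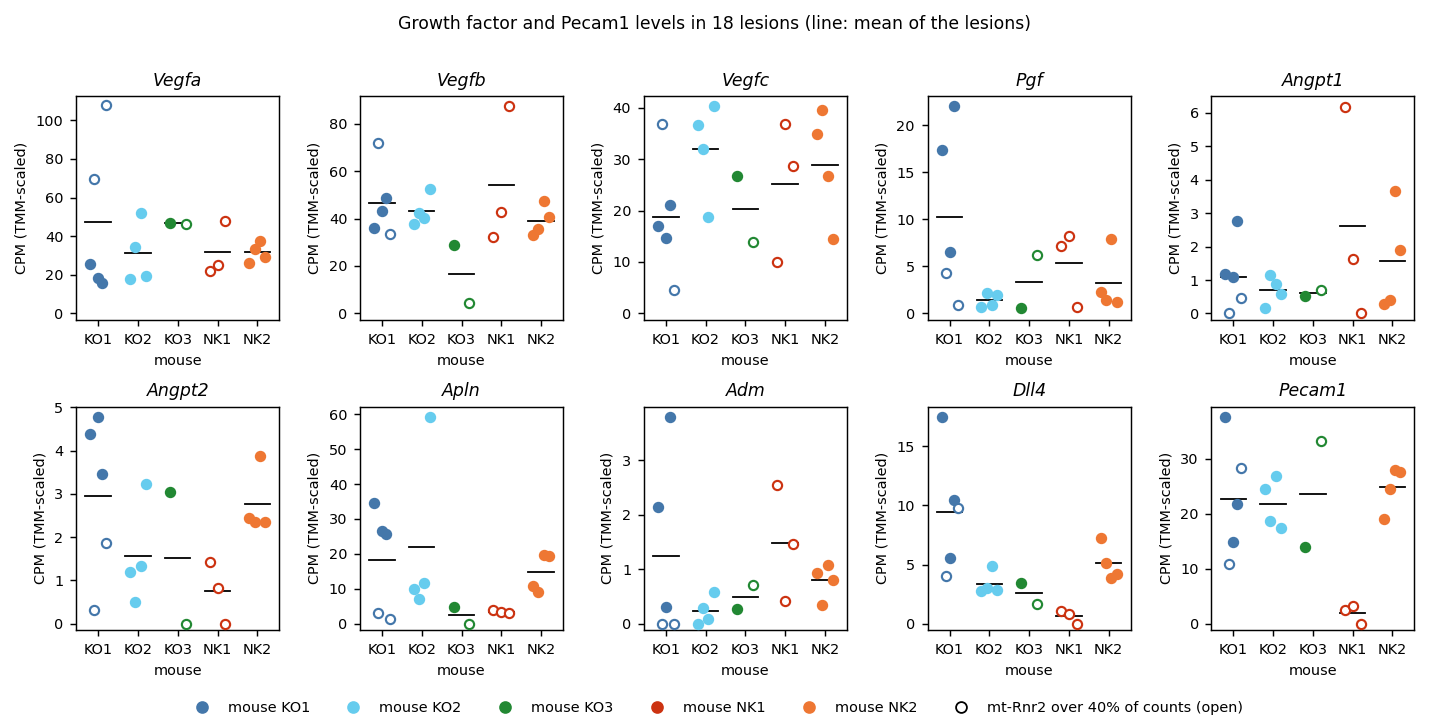
Level of each factor and of Pecam1 in CPM (vertical axes, from 0, a scale of its own for each gene) for the 18 lesions by mouse (horizontal axis). Points are lesions, open where mt-Rnr2 took over 40% of counts, and lines are the means of a mouse's lesions. These lines give each lesion the same weight and can differ from the mouse levels in the text, which use summed counts. Pecam1 and Dll4 lie lowest in mouse NK1, while Vegfa, Vegfb and Vegfc in NK1 overlap the other mice.

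Among the VEGF ligands, Vegfa (chromosome 17, 46016993 to 46032369) was at similar levels in all mice. It had 30.5 CPM in KO1, 33.0 in KO2, 47.9 in KO3, 25.3 in NK1 and 33.5 in NK2. Over lesions its lowest, median and highest values were 22.2, 29.3 and 47.7 CPM with NK cells and 15.99, 34.7 and 108 CPM in controls, and the groups overlapped. The 2 highest lesions were KO1-5 (108 CPM) and KO1-2 (69.6 CPM), both among those rich in mt-Rnr2, while the other 3 lesions of the same mouse had 15.99 to 25.6 CPM. The log2 fold change of Vegfa with NK cells was -0.34 ± 0.40 (SE, 95% interval -1.27 to 0.60).

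Vegfb (chromosome 19, 6982473 to 6987651) was the steadiest of the 9 factors in the 12 lesions with less mt-Rnr2, which leave out mouse NK1, but not over all lesions. It had 46.1 CPM in KO1, 46.2 in KO2, 20.8 in KO3, 40.6 in NK1 and 41.7 in NK2. In the 12 lesions with less mt-Rnr2 it lay between 29.1 and 52.4 CPM, a range of 1.81-fold, against 3.26-fold for Vegfa, 2.79-fold for Vegfc and 2.71-fold for Pecam1 in the same lesions. In the 6 lesions rich in mt-Rnr2 it reached from 4.53 CPM (KO3-2, 19 counts) to 87.3 CPM (NK1-3, 119 counts). Against 6.74-fold for Vegfa and 8.70-fold for Vegfc over all lesions, Vegfb ranged 19.3-fold. Its log2 fold change with NK cells was 0.12 ± 0.45 (95% interval -0.92 to 1.17).

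Vegfc (chromosome 8, 54077606 to 54187096) had 18.8 CPM in KO1, 34.3 in KO2, 22.6 in KO3, 18.3 in NK1 and 29.9 in NK2. Its lesions ran from 9.99 over a median of 28.6 to 39.5 CPM with NK cells and from 4.65 over 21.1 to 40.4 CPM in controls, so the groups overlapped over nearly their whole range. With NK cells it differed by -0.07 ± 0.45 on the log2 scale.

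Pgf (chromosome 12, 85166635 to 85177790) was the VEGF ligand that varied most from lesion to lesion, from 0.528 to 22.0 CPM, or 41.6-fold. The highest were KO1-4 (22.0 CPM, 191 counts) and KO1-1 (17.4 CPM, 179 counts), and no other lesion passed 8.197 CPM. By mouse it had 13.1 CPM in KO1, 1.56 in KO2, 2.61 in KO3, 6.28 in NK1 and 3.28 in NK2. Its log2 fold change with NK cells was -0.28 ± 0.97, and 1.22 without mouse KO1. In the sum of these 4 ligands per kilobase, Vegfb made up 58.1% to 64.0% and Vegfa 14.8% to 17.3% in KO1, KO2, NK1 and NK2, while Vegfc ran from 13.1% in KO1 to 23.2% in KO2. In KO3 Vegfb made up 39.97% and Vegfa 34.2%, and 92.1% of the Vegfb counts of that mouse came from 1 of its 2 lesions. Pgf made up 10.7% of the sum in KO1 and 1.24% in KO2.

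**Figure D2:**
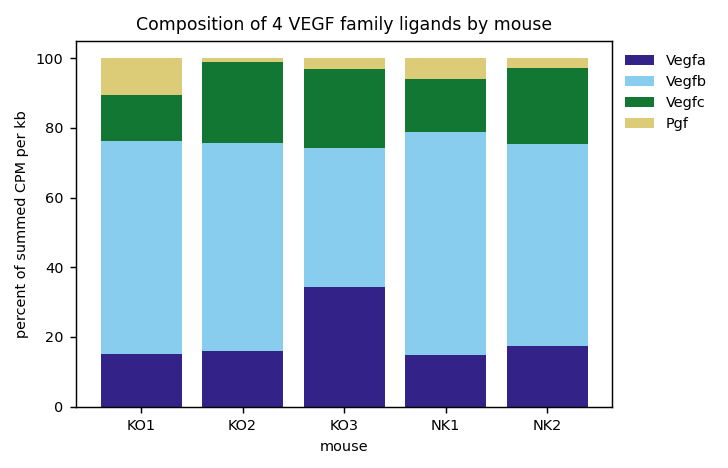
Share of Vegfa, Vegfb, Vegfc and Pgf in the sum of their CPM per kb (vertical axis, percent) for each mouse (horizontal axis), from counts summed over its lesions. Vegfb holds 58.1% to 64.0% in 4 mice and 39.97% in KO3.

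Of the angiopoietins, Angpt1 (chromosome 15, 42424723 to 42676977) had 4.09 CPM in NK1 and 1.68 in NK2 against 1.42 in KO1, 0.768 in KO2 and 0.609 in KO3. Both NK mice thus lay above every control mouse, as in 1 of the 9 members and in 7.94% of the 16917 genes tested. By lesion it had 6.19, 1.64 and 0 CPM in NK1, and 0.289, 0.416, 3.67 and 1.90 CPM in NK2, and the control lesions ran from 0 over a median of 0.716 to 2.76 CPM. The lesions therefore overlapped between groups, and 39 of the 43 Angpt1 counts of NK1 came from lesion NK1-1. The log2 fold change was 1.60 ± 0.90 (95% interval -0.48 to 3.68), and 0.58 without that lesion. The fibroblast markers that were high in NK1 stand beside this value, and their part in it was not tested. An exon of Angpt1 overlaps Gm17473 on the other strand, which had 10 counts in all.

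Angpt2 (chromosome 8, 18690263 to 18741562) lies within Mcph1 on the other strand (1571 counts), and as no label states whether counting used strand, reads of the 2 genes cannot be told apart where they overlap. Angpt2 had 3.95 CPM in KO1, 1.65 in KO2, 2.00 in KO3, 1.05 in NK1 and 2.91 in NK2. It was lowest, at 0 counts, in KO3-2 and NK1-3, where 0 counts allow up to 0.716 and 2.20 CPM, and highest in KO1-3 (4.78 CPM). Its log2 fold change with NK cells was -0.34 ± 0.87. The ratio of Angpt2 to Angpt1 counts per kilobase was 3.33 in KO1, 2.56 in KO2, 3.93 in KO3 and 2.08 in NK2, and 0.306 in NK1, from 11 and 43 counts. Lesion NK1-1 held 9 and 39 of these, and without it the ratio of NK1 was 0.598, from 2 and 4 counts.

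Apln (chromosome X, 48025146 to 48034853), which encodes the endothelial peptide apelin, was lower in every lesion rich in mt-Rnr2 than in any other lesion. By mouse it had 26.1 CPM in KO1, 23.2 in KO2, 3.13 in KO3, 3.52 in NK1 and 15.9 in NK2. All 6 lesions rich in mt-Rnr2 had 0 to 3.97 CPM (median 3.02), and the other 12 had 4.75 to 59.2 CPM (median 15.4), with no overlap. Few counts stand behind some of the low values, 4 in NK1-3, 3 in KO1-5 and 0 in KO3-2. Their order against KO3-1, the lowest of the other lesions (4.75 CPM), is therefore not fixed. All rich lesions lay below every other lesion in 0.445% of 15741 genes and in 1 of the 9 members, Apln, and all lay above in 0.235% of genes and 0 members. Of the 6 rich lesions 3 are those of NK1. Mouse KO1 has lesions of both kinds, and KO1-2 and KO1-5 had 3.09 and 1.39 CPM and its other 3 lesions 25.7 to 34.6 CPM. These values are part of the same split and add no separate evidence. The part of the mt-Rnr2 share in the Apln level was not tested. The highest lesion, KO2-4, held 67.6% of the Apln counts of its mouse. The log2 fold change with NK cells was -0.84 ± 0.93, and -0.14 without mouse NK1.

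Adm (chromosome 7, 110627661 to 110629820) encodes adrenomedullin, which acts on endothelium through Calcrl and Ramp2. It had few counts, 59 in KO1, 12 in KO2, 5 in KO3, 19 in NK1 and 47 in NK2. The level was 1.64 CPM in KO1, 0.263 in KO2, 0.435 in KO3, 1.81 in NK1 and 0.839 in NK2. Lesion KO1-4 was highest (3.797 CPM), NK1-1 gave 16 of the 19 counts of NK1, and 3 control lesions had 0 counts. NK mice differed by 0.73 ± 1.14 on the log2 scale, and by 0.07 without NK1-1. The overlapping Gm28863 on the other strand had 0 counts.

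Dll4 (chromosome 2, 119325784 to 119335962) varied most between mice, 12.2-fold, with 10.5 CPM in KO1, 3.55 in KO2, 2.87 in KO3, 0.857 in NK1 and 5.39 in NK2. The 3 lesions of NK1 had the lowest values, at 1.11, 0.820 and 0 CPM (7, 2 and 0 counts). The 0 counts of NK1-3 allow up to 2.20 CPM, above the lowest control lesion, so its rank is not fixed. KO1-1 was the highest at 17.5 CPM. All lesions of NK2 (3.88 to 7.28 CPM) lay within the range of the controls (1.67 to 17.5 CPM). Mouse accounted for 77.3% of the variance of log2 CPM over lesions, close to the 76.4% of Pecam1. Set against Pecam1, the Dll4 counts were 43.6% of the Pecam1 counts in KO1, 15.4% in KO2, 13.5% in KO3, 37.5% in NK1 (9 against 24 counts) and 20.3% in NK2. The same ratio for Vegfa was 126% to 226% in the other 4 mice and 1108% in NK1. The log2 fold change of Dll4 with NK cells was -0.83 ± 0.96, and it was -0.01 without mouse KO1 and -2.72 without NK2. The overlapping Gm14207 on the other strand had 69 counts.

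The question the groups pose is whether lesions in mice with NK cells differ from those without. No factor passed the test, with counts summed per mouse and 2 mice against 3 (edgeR quasi-likelihood test, adjusted p = 0.9998 for each of the 9). Of them 0 reached an unadjusted p under 0.05, and DESeq2 called 0. Nor did any gene, 0% of the 16917 tested (426 at an unadjusted p under 0.05, and 39 called by DESeq2). Angpt1, Adm and Vegfb were positive and the other 6 negative, with a median of -0.28 against -0.03 over all genes. Over all genes, both NK mice exceeded the 3 controls in 7.94%, as in 1 member (Angpt1), and both fell short of them in 6.86%, as in 0 members. The level of Pecam1 was 14.4 ± 17.1 CPM in the 2 NK mice and 22.8 ± 1.45 CPM in the 3 control mice (mean ± SD). Its log2 difference was -0.65 ± 0.83 (SE), and 0.22 without mouse NK1. The interval for Vegfa does not hold a rise of 0.60 or more on the log2 scale, while those of Pgf, Angpt1, Angpt2, Apln, Adm and Dll4 are each over 4 log2 units wide. Those of Pgf (-2.52 to 1.96), Angpt2 (-2.35 to 1.67) and Adm (-1.91 to 3.36) hold changes of more than 1.5 log2 units in both directions, while Angpt1 reaches down to -0.48, and Apln and Dll4 reach up to 1.32 and 1.39.

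**Figure D3:**
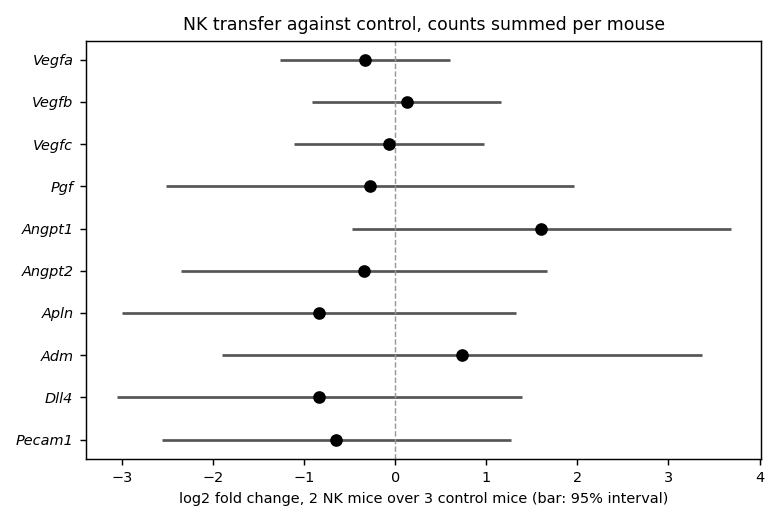
Log2 fold change of each factor and of Pecam1, 2 mice with NK cells over 3 control mice (horizontal axis). Points are edgeR estimates from counts summed per mouse and bars their 95% intervals, and all bars cross 0.

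Of 13 receptor genes of these factors, 1 was positive and 12 were negative with NK cells (median -0.45), and 0 passed in edgeR (0 at an unadjusted p under 0.05, 0 in DESeq2). The 3 with the highest levels were Nrp2, a VEGF-C co-receptor, with 75.8 ± 26.6 CPM (SD, n = 2 mice) against 106 ± 16.5 in controls (n = 3), Calcrl, the adrenomedullin receptor, with 51.3 ± 51.8 against 70.3 ± 53.8, and Nrp1, a VEGF-A co-receptor, with 49.6 ± 12.8 against 67.9 ± 4.58. Of 15 tested genes among 17 other angiogenic ligands, 0 passed (2 at an unadjusted p under 0.05, 0 in DESeq2), 6 were positive and 9 negative (median -0.16). Pdgfc, a growth factor for fibroblasts and mural cells, stood at 172.7 ± 109 CPM with NK cells and 39.3 ± 23.8 in controls (log2 fold change 2.13 ± 0.67, edgeR adjusted p = 0.9998), with 249.7 CPM in NK1. Of 11 angiogenesis inhibitors (median -0.25), 7 Notch targets (median 0.12) and 24 hypoxia response genes (median 0.04), 0 passed in edgeR or DESeq2, and 3, 0 and 2 of them had an unadjusted p under 0.05. The 19 endothelial markers were all negative (median -0.88), of which 0 passed and 1 had an unadjusted p under 0.05. All of these medians stand beside -0.03 over all genes tested. Several depend on 1 mouse or lesion: the receptor median was 0.07 without NK1 and -1.24 without NK2, that of the inhibitors 0.41 without NK1 and -0.99 without NK2, and that of the Notch targets ran from -0.33 without lesion NK1-3 to 0.76 without KO1.

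Whether a factor differed between hosts beyond the spread of their lesions was asked with the 18 lesions and a mean for each mouse, a comparison that is no test of treatment. Dll4 was the 1 member of 9 that passed (log2 range of the 5 mouse means 3.62, edgeR adjusted p = 0.0351), against 6.8% of 15741 genes. Pecam1 passed as well (3.52, edgeR adjusted p = 0.0175). Without mouse NK1 the range was 1.85 for Dll4 (edgeR adjusted p = 0.0990) and 0.17 for Pecam1 (adjusted p = 0.983). With log2 CPM of Pecam1 in the model, the range of Dll4 was 1.58 (adjusted p = 0.246).

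The other 8 members did not pass. Vegfa had a log2 range of 0.60, Vegfc of 0.76 and Vegfb of 1.66, against a median of 1.68 over all genes, while Angpt2 had 1.80, Angpt1 2.15, Adm 2.58, Pgf 2.85 (adjusted p = 0.195) and Apln 3.13 (edgeR adjusted p = 0.186). Pgf passed without the 6 lesions rich in mt-Rnr2 (4.81, edgeR adjusted p = 0.0227), which leaves 12 lesions of 4 mice. Without KO3-1, which leaves KO3 as lesion KO3-2 alone, Vegfb (3.57, edgeR adjusted p = 0.0269) and Apln (10.69, adjusted p = 0.0489) passed, and KO3-2 had 0 Apln counts. The Dll4 call was kept in 8 of 19 fits that leave out a lesion or mouse NK1, with adjusted p from 0.0196 to 0.0990.

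Among the pathway genes, 2 of 13 receptors passed in this comparison, Calcrl (3.38, edgeR adjusted p = 0.00158) and Tek, the angiopoietin receptor (4.85, adjusted p = 0.0316). Tek had 0.286 CPM in NK1, 3.06 in KO1 and 7.40 to 10.9 in KO2, KO3 and NK2. Of 15 other ligands 2 passed, the platelet-derived growth factor Pdgfb (2.83) and the endothelial matrix protein Egfl7 (2.45). Of 6 tested Notch targets, Hes1 (3.69) and Nrarp (6.24) passed, and DESeq2 called Hes1 but not Nrarp. Both were highest in NK1, the mouse with the lowest Dll4, at 27.9 and 44.1 CPM against 4.66 to 10.3 and 1.65 to 12.6 CPM in the other mice. Hey1, Heyl and Efnb2 of the same list were lowest in NK1, at 3.807, 1.999 and 10.85 CPM. In the other mice they had 9.017 to 11.75, 6.45 to 17.96 and 12.88 to 28.48 CPM. Hey2 and Unc5b lay between, so the list had no common direction in NK1. Of 11 inhibitors, Thbs2, Adamts1 and Sema3f passed. Of the 19 endothelial markers 7 passed.

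The relation to endothelial content was then asked within mice, as the slope of each factor's log2 level on log2 CPM of Pecam1 with the mouse as a block. None of the 9 factors passed (edgeR quasi-likelihood test), against 1.02% of 15740 genes that rose and 1.45% that fell with Pecam1. At an unadjusted p under 0.05 stood Vegfb, with a slope of -0.43 ± 0.14 (adjusted p = 0.105), and Pgf with 0.97 ± 0.42 (edgeR adjusted p = 0.198). Vegfb passed in DESeq2 (-0.48, DESeq2 adjusted p = 0.00832), which called 1688 genes in this comparison, against 389 in edgeR. Dll4 had 0.69 ± 0.35, Angpt1 1.28 ± 0.65, Angpt2 0.38 ± 0.58, Adm 0.18 ± 0.55, Apln -0.01 ± 0.41, Vegfa -0.17 ± 0.20 and Vegfc -0.26 ± 0.20. The range of Pecam1 on which these slopes rest is set by a few lesions, as NK1-3 had 0 Pecam1 counts (which allow up to 2.20 CPM) and no other mouse had a lesion under 10.8 CPM. Without mouse NK1, 0 genes passed, and without KO3-2 and NK1-3 together 1 gene did.

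Among the receptors, Kdr (slope -1.16 ± 0.23, edgeR adjusted p = 0.0217) and Notch1 (-0.74 ± 0.15) fell with Pecam1 and Calcrl (0.70 ± 0.18) rose, 3 of 13. Of the other ligands the lymphatic growth factor Vegfd fell (-0.61 ± 0.13), and of the Notch targets Hes1 fell (-1.09 ± 0.23). They rest on the same range of Pecam1, without which at most 1 gene passed. Markers of other cells moved with Pecam1 as well, and their part in these slopes was not tested. Of 10 alveolar epithelial markers 5 fell (median slope -0.61), among them Sftpa1 (-0.81 ± 0.14) and Aqp5 (-1.01 ± 0.18), and of 5 carcinoma epithelial markers 1 fell, Cdh1 (-1.10 ± 0.28). Of the 18 other endothelial markers 14 had a positive slope (median 0.45), and 1 rose past the threshold, Eng (0.87 ± 0.22), with 6 at an unadjusted p under 0.05.

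**Figure D4:**
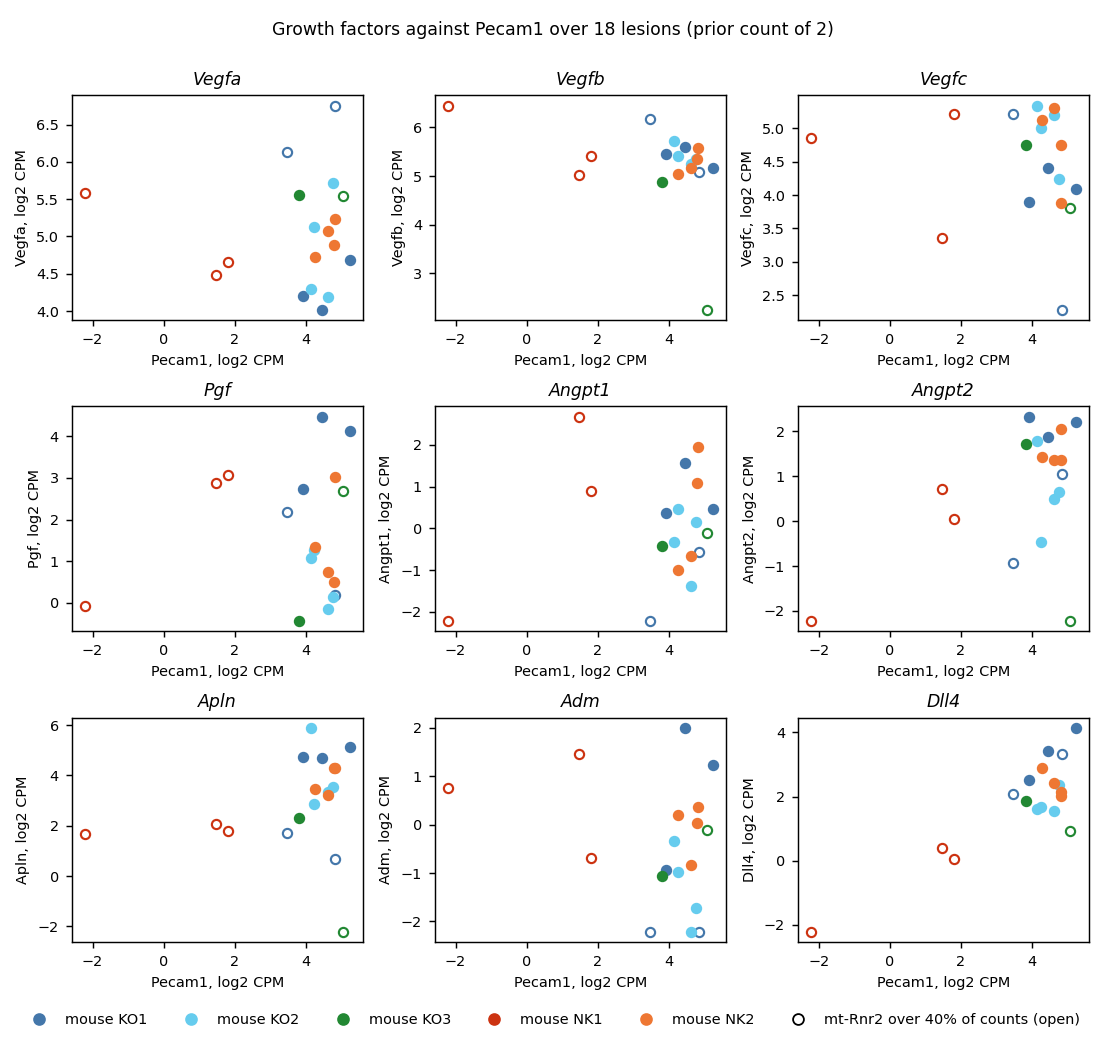
Log2 CPM of each factor (vertical axes) against log2 CPM of Pecam1 (horizontal axes) in 18 lesions, coloured by mouse and open where mt-Rnr2 took over 40% of counts. The 3 lesions of NK1 lie to the left of the other 15 in every panel, and Dll4 is lowest in them while Vegfa, Vegfb and Vegfc are not.

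As a description over 18 lesions that share depth, capture and mouse, Dll4 had a Pearson r of 0.85 with Pecam1 in log2 CPM (Spearman 0.54), and Pecam1 ranked 6 among 10246 genes ordered by their likeness to Dll4. Within mice it was 0.76, and over the 15 lesions without NK1 it was 0.24. Angpt2 had 0.51, 0.37 within mice and 0.01 without NK1. Vegfb had -0.41, -0.67 within mice and -0.45 without NK1, but 0.07 over the 12 lesions with less mt-Rnr2, where Dll4 had 0.45 and Angpt2 0.01. Vegfa had -0.03, Apln 0.23, Angpt1 0.20, Pgf 0.13, Vegfc -0.14 and Adm -0.25. With the mean log2 CPM of the 19 endothelial markers in place of Pecam1, Dll4 had 0.75 (Spearman 0.25) and Angpt2 0.36. Within mice these r values were 0.49 and 0.05, and without NK1 -0.22 and -0.315. Over the 12 lesions with less mt-Rnr2 they were 0.03 and -0.61.

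Since Vegfa, Adm and Apln are known hypoxia targets, the slope of each factor on the mean log2 CPM of 24 hypoxia response genes was fitted in the same way, with the list genes left out of the test. Vegfa was the 1 member of 9 that passed, and it fell with the hypoxia genes, by 1.15 ± 0.36 per log2 unit (edgeR adjusted p = 0.0414). None of the 9 passed as rising in edgeR or DESeq2, and 2 positive slopes, of Angpt1 and Apln, had an unadjusted p under 0.05. Over all 15717 genes tested, 9.09% rose and 5.01% fell. Apln had a slope of 2.10 ± 0.97 (adjusted p = 0.161), Angpt1 2.64 ± 1.06 (edgeR adjusted p = 0.108), Pgf 1.78 ± 1.02, Angpt2 1.70 ± 0.94, Adm 1.46 ± 1.23, Dll4 0.81 ± 0.55, Vegfb -0.33 ± 0.40 and Vegfc -0.51 ± 0.55.

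The hypoxia score itself moved with the share of mt-Rnr2 (r = -0.60 over 18 lesions), and it was lowest in NK1-3 and KO1-5. It was highest, at 5.37, in NK1-1, which is also rich in mt-Rnr2. With the log2 share of mt-Rnr2 added, the Vegfa slope was -0.67 (edgeR adjusted p = 0.312), and in the 12 lesions without high mt-Rnr2 it was 2.92 (adjusted p = 0.456), where 3 genes passed in all. Cell type markers moved with the same score, and their part in the Vegfa slope was not tested. Of 10 alveolar epithelial markers 5 fell, among them Sftpc (-1.33 ± 0.23) and Sftpb (-3.33 ± 0.76), with 9 slopes negative. Of 8 macrophage markers 3 rose, Mrc1 (1.97 ± 0.46), C1qa (1.56 ± 0.39) and C1qc (1.72 ± 0.50), and of 8 fibroblast markers, all with positive slopes, Col3a1 rose (1.34 ± 0.38). Of 19 endothelial markers Cdh5 (2.08 ± 0.38) and Sox18 (4.26 ± 1.202) rose and Egfl7 fell (-1.23 ± 0.32), and of 5 carcinoma epithelial markers Krt18 fell (-0.99 ± 0.30). The Vegfa call was kept in 12 of 23 fits that leave out a mouse or a lesion, and without mouse KO1 the slope was -0.51. Other ligands that passed were Pdgfc, rising (3.46 ± 0.43), and Pdgfa (-1.59 ± 0.30), Egfl7 (-1.23 ± 0.32) and Vegfd (-1.30 ± 0.38), falling, and 0 of 13 receptors passed in edgeR (2 at an unadjusted p under 0.05, and Notch1 in DESeq2).

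**Figure D5:**
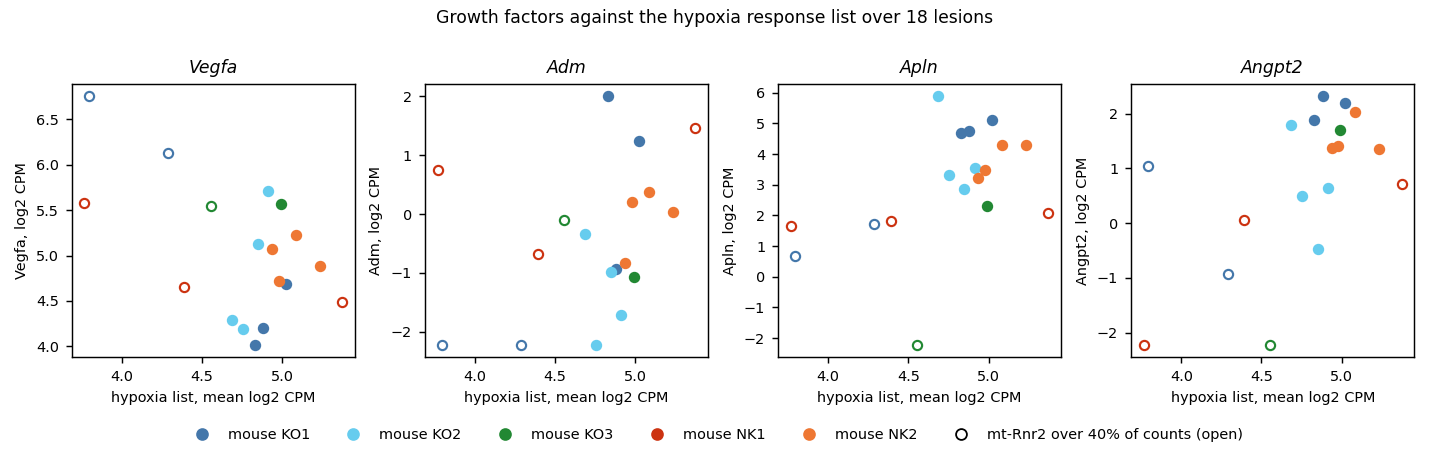
Log2 CPM of Vegfa, Adm, Apln and Angpt2 (vertical axes) against the mean log2 CPM of the hypoxia response genes (horizontal axes) in 18 lesions, coloured by mouse and open where mt-Rnr2 took over 40% of counts. The lesions with the lowest hypoxia score are open points, among them KO1-5 with the highest Vegfa. The highest score is also that of an open point, NK1-1.

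Between the factors, the highest correlation of log2 CPM over the 18 lesions was that of Angpt2 with Apln (r = 0.77, and 0.78 within mice), followed by Angpt2 with Dll4 (0.70 and 0.65). Vegfa was negatively related to Apln (-0.60 and -0.65 within mice). Angpt2 and Apln both had 0 counts in KO3-2, and Angpt2 and Dll4 both had 0 in NK1-3. Angpt2 had 1 count in KO1-2, and Apln had 4 in NK1-3 and 3 in KO1-5. The part of such low counts in these correlations was not tested. Against all genes with a mean of at least 5 CPM, the gene most like Dll4 was Mcam, which encodes the vascular adhesion protein CD146. Its r was 0.89 (0.78 within mice), followed by Prkg2 with 0.89 (0.54 within mice) and Fkbp1a with 0.87 (0.47 within mice). For Angpt2 the list of the 3 nearest held Gatad2a, Egln3, an oxygen-sensing prolyl hydroxylase of the hypoxia response (0.87), and Sh3bgrl2. Pgf was nearest to Mtor (r = 0.80) and next to the collagen gene Col1a1 (0.80). Vegfb was nearest to the proteasome assembly gene Psmg2 (0.95), Apln to the calmodulin gene Calm3 (0.92), Vegfc to 9130401M01Rik (0.87), Angpt1 to Wsb1 (0.85), Vegfa to the lysozyme gene Lyz1 (0.81) and Adm to the small GTPase gene Rhoq (0.79). These are descriptions over 18 lesions of 5 mice.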

How the data were processed

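The submitters' processing notes list mm10 and the tools STAR, bcl2fastq 2.17, DESeq2 and RSEM 1.2.28. The deposited gene table holds RSEM's expected counts, unscaled and rounded here. A second deposited table holds log2-scale values normalized by the authors, by a step that no source here states, and served as an alternative. There were 0 further columns of sample values.

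Genes were tested with the quasi-likelihood test of edgeR 4.0.16 (TMM, robust, filterByExpr with minimum count 10 and total 15) in R 4.3.3, with Benjamini-Hochberg adjustment over all genes and a threshold of 0.05. Treatment was tested on counts summed per mouse, since lesions of a mouse are not independent. Differences among mice and slopes on Pecam1 or on the hypoxia genes (mouse as a block) used lesions. CPM is scaled by TMM, log2 CPM has a prior count of 2, and all 9 members passed both filters. The SE is the fold change over the square root of F. Alternatives used DESeq2 1.42.0 and limma 3.58.1. The fits were also run on simulated counts with no random spread between mice, which cannot show how they behave at the spread of these mice. Counts of lesions from the same mouse always differed by more than sampling noise (lowest chi-square per degree of freedom 23.8). Limits for 0 counts are 3 counts of a library and cover counting error only.

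All members and Pecam1 are named. From each gene list up to 4 genes past the threshold are named, or else among the 3 with the highest mean. For likeness the 3 highest correlations were listed, and all 3 are named for Dll4 and Angpt2 only. The other Notch targets are also named where their levels in NK1 are compared. The members and lists were chosen with earlier results of these data known. Coordinates are 1-based on GRCm38 from GENCODE M21, and promoter sequences are from RefSeq (GRCm38.p6).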

Additional observations from a re-analysis of the deposited data

Results flagged for a closer look

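Vegfb stood at 87.3 CPM in lesion NK1-3, apart from the other 6 lesions of mice with NK cells, the next highest of which had 47.5 CPM. Its gap to that lesion was 0.725 of the range of the group, above Dixon's 95% critical value for 7 independent values. Lesions of the same mouse are not independent, so the flag is a description and no test. The value rests on 119 counts in the library with the lowest total. For each of the 9 factors and Pecam1 the group with NK cells was checked in this way. Chance flags about 1 in 20 groups of independent values, and the rate for lesions that share a mouse was not tested.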

How the results depend on the processing

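For the 9 factors, 270 of 297 alternative values of the fold change with NK cells kept their sign, and none of them passed the threshold. Of the 33 settings, 23 only leave out a mouse or lesion. In the other 10 settings 16 of 90 values changed sign. Where a value changed sign or a call below, the cause was not tested. By the number of genes called with NK cells, DESeq2 gave 39, no filter on low counts 224, and the fit with the host number as replicate block 7, in place of 0. The host numbers name different animals, and deviations of same-numbered mice correlated at 0.10 (NK1 with KO1) and 0.29 (NK2 with KO2), from 2 pairs, too few to show whether a number marks a shared batch, and the labels name none. With the replicate block Vegfb was -0.165 and Pgf 0.005. The deposited log2 table gave the other sign to Vegfc (0.174), Pgf (0.145), Angpt2 (0.027) and Apln (0.108). Equal weight for each lesion did so for Vegfc (0.217), Pgf (0.194) and Apln (0.377), voom with the mouse as a random block for Vegfc (0.042), Pgf (0.037) and Angpt2 (0.281), and Pecam1 as a covariate for Vegfc (0.194) and Angpt2 (0.119). Without the 6 lesions rich in mt-Rnr2, which leaves NK2 alone and assumes that it varies like the controls, Vegfc was 0.156, Adm -0.023 and Pecam1 0.326, and the median of the inhibitors was 0.338.

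Leaving out each mouse or lesion gave 0 to 4 genes called with NK cells. It gave -0.164 to 0.428 for Vegfb, -0.470 to 0.354 for Vegfc, -0.809 to 1.22 for Pgf, -1.28 to 0.201 for Angpt2, -2.72 to -0.014 for Dll4 and -3.32 to 0.222 for Pecam1.

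Among the mice, DESeq2 called 3417 genes, the deposited log2 values 481 (limma) and the fit with Pecam1 added 595, in place of 1070. Leaving out each lesion gave 584 (without KO3-2) to 2381 (without KO3-1). The Dll4 range was 1.71 (edgeR adjusted p = 0.0979) without the 6 lesions rich in mt-Rnr2 and 3.65 (adjusted p = 0.0563) with no filter, and it ran from 3.26 (without NK1-3) to 4.24 (without NK1-1) without a lesion.

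For the slope on Pecam1, DESeq2 called 1688 genes in place of 389, and 0 genes were called in the deposited log2 table, without the lesions rich in mt-Rnr2, or with the endothelial list in place of Pecam1. Without KO3-2 and NK1-3, an alternative chosen after seeing the data, as were Pecam1 added among mice, mouse NK1 left out there and the share of mt-Rnr2 added to the hypoxia slope, 1 gene was called, with Vegfa at 0.098 and Apln at 0.344. Signs changed without the lesions rich in mt-Rnr2 for Vegfa (0.563), Angpt2 (-0.283) and Adm (-0.353), and with the endothelial list for Vegfc (0.115) and Angpt2 (-0.419). Leaving out each mouse or lesion gave 0 (without NK1) to 865 genes (without KO1), and slopes of -0.294 to 0.099 for Vegfa, -0.361 to 0.731 for Angpt2, -0.256 to 0.161 for Apln and -0.078 to 1.02 for Adm.

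For the slope on the hypoxia genes, DESeq2 called 3421 genes in place of 2215. Without the lesions rich in mt-Rnr2 there were 3, with the other sign for Vegfa (2.92), Pgf (-1.52), Angpt2 (-2.34), Apln (-1.90) and Adm (-1.99). With Pecam1 added Vegfb was 0.303 and Vegfa -1.24 (edgeR adjusted p = 0.0526). With no filter Vegfa was -1.12 (adjusted p = 0.0537). Leaving out each mouse or lesion gave 893 (without KO1) to 2583 genes, and -1.73 to -0.511 for Vegfa, -0.665 to 0.304 for Vegfb and -1.23 to 0.238 for Vegfc. Adm, with 142 counts, had 0 counts in 3 lesions, and its level there is limited by depth.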
